A study of Homo sapiens with 6 samples.

Results

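Genes of the junctions between cells were described in H1, an established line of human embryonic stem cells, grown on laminin coatings. The 10 genes were chosen by name for their role: the claudins CLDN3, CLDN4, CLDN6, CLDN7 and CLDN10, occludin (OCLN), the scaffold gene TJP1, the junctional adhesion molecule F11R, and the connexins GJA1 and GJC1. They are 10 of the 60499 genes listed in the deposited tables, and all 10 passed the filter on low counts that left 17608 genes to test.

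The cells were cultured for 4 days in nutristem medium, a medium for stem cells, on laminin-521 alone (LN-521) or on laminin-521 together with laminin-221 (LN-521+LN-221, called the mixed coating here). Cells bind laminins, proteins of the basement membrane, through integrins. Both groups were the same line in the same medium, renewed daily, and the labels give the coating as what differs. Each coating had 3 wells, which the labels call biological replicates, and since nothing says that they came from separate cultures, p-values here measure only the spread between these wells.

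Tight junctions seal the space between neighbouring epithelial cells. Claudins and occludin are membrane proteins of the seal, claudins set which ions pass it, scaffold proteins such as ZO-1 tie these strands to actin, and junctional adhesion molecules help place them. Gap junctions are channels built of connexins that let small molecules and ions pass directly between cells. Human embryonic stem cells grow as epithelial sheets that hold both kinds of junction, and CLDN6 and connexin 43 are known to be abundant in them.

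Total counts ran from 20606450 to 26836686 per library, and the common biological coefficient of variation between wells of a coating was 7.03%. The labelled cell type was checked against its markers. POU5F1, a core pluripotency factor, had a mean of 753.6 TPM (a level corrected for transcript length and scaled to a fixed total) over the 6 libraries, and SOX2 lay between 137.3 and 181.2 TPM. Of the 8 pluripotency markers, POU5F1 (log2 fold change -0.36, edgeR adjusted p = 0.00366) and NANOG (-0.73, edgeR adjusted p = 1.65e-04) fell on the mixed coating. LIN28A rose (0.23, edgeR adjusted p = 0.00737) and the other 5 did not pass. Over all genes tested, 2.53% passed an edgeR adjusted p under 0.05. The part of these shifts in the values below was not tested. Summed over lists of 6 to 8 genes, markers of trophoblast or amnion came to between 23.6 and 30.8 TPM on LN-521 and between 25.0 and 27.1 TPM on the mixed coating, led by KRT7 at a mean of 12.4 TPM and IGFBP3 at 10.5 TPM, with TFAP2A at 1.64 TPM, GABRP at 1.33 TPM and CGA at 0 to 1 count per library. Mesoderm markers came to between 1.97 and 2.44 and between 2.23 and 2.65 TPM in the same order, led by TBX6 at 1.76 TPM, with MSGN1 at 0 in all libraries. Definitive endoderm markers came to between 0.84 and 1.48 and between 0.87 and 1.12 TPM, led by CXCR4 at 0.90 TPM, with SOX17 and FOXA2 at 0 to 2 counts. Neural ectoderm markers came to between 1.23 and 1.55 and between 2.5 and 3.21 TPM, led by DLK1 at 1.82 TPM, and DLK1 was the 1 gene of that list that rose (edgeR adjusted p = 0.00663). Squamous epithelial markers came to between 0.13 and 0.70 and between 0.29 and 0.62 TPM, led by KRT13 at 0.137 TPM, and none of that list had enough counts to be tested. Mesenchyme markers came to between 125.8 and 138.7 and between 115.1 and 141.1 TPM. They were led by THY1 at 45.9 TPM, COL1A2 at 44.7 TPM and COL1A1 at 40.0 TPM. In the same list TWIST1 had a mean of 0.092 TPM, PRRX1 0.073 TPM, COL3A1 0 to 1 count and DCN 0 to 9 counts. THY1 was the 1 gene of 3 tested in that list that fell (edgeR adjusted p = 0.0146). In bulk RNA, fewer cells of a type and less RNA per cell cannot be told apart.

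The 10 genes spanned a wide range of levels, and 2 genes made up most of their families. GJA1, which encodes connexin 43, was the highest, at a mean of 471.9 TPM over the 6 libraries (405.6 to 547.4). It ranked 187th among the 14381 genes with a mean of at least 1 TPM, above 98.7% of them. CLDN6 followed at 201.4 TPM (185.8 to 213.95) and F11R, which encodes JAM-A, at 102.9 TPM (97.5 to 105.3). The ranges of these 3 genes did not meet each other or those of the other 7.

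Below them, TJP1, which encodes ZO-1, had a mean of 29.9 TPM (25.1 to 35.1), CLDN7 28.1 TPM (25.6 to 29.7) and OCLN 23.1 TPM (20.4 to 25.65). TJP1 exceeded CLDN7 in 5 of 6 libraries and their ranges overlapped, so these neighbours were not separated beyond their spread. CLDN7 exceeded OCLN in 6 of 6 libraries, by 1.10 to 1.46 times, although the extremes of their ranges touched. CLDN10 had 13.2 TPM (11.45 to 15.95) and GJC1, which encodes connexin 45, had 10.1 TPM (9.07 to 11.2). CLDN3 had 9.13 TPM (7.39 to 10.9) and CLDN4 7.575 TPM (5.05 to 9.26). CLDN10 lay above GJC1 in 6 of 6 libraries by 1.06 to 1.49 times, while GJC1 over CLDN3 and CLDN3 over CLDN4 each held in 5 of 6 with overlapping ranges.

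**Figure D1:**
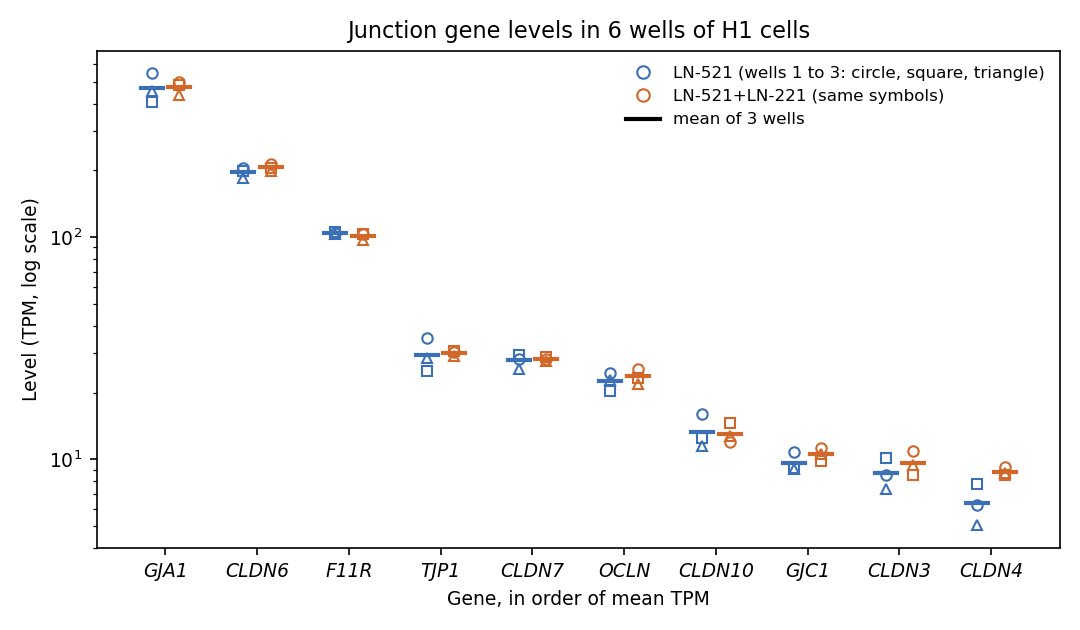
Level of each of the 10 junction genes in TPM on a log axis, 1 point per well with the mean of each coating as a bar. GJA1, CLDN6 and F11R stand above the other 7 genes in every well, and CLDN4 is the 1 gene whose wells do not overlap between the coatings on this scale. The share of all genes without overlap in TPM was not computed, so this count has no background.

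Within the claudin family, CLDN6 held 67.8% to 68.9% of the summed TPM of 24 claudin genes, a sum that ran from 269.6 to 312.4 TPM. Its share per library was 67.8%, 68.8% and 68.9% on LN-521 and 68.5%, 68.5% and 68.6% on the mixed coating. The share therefore varied by about 1 percentage point over all 6 wells. CLDN7 held a mean of 9.56%, CLDN10 4.48%, CLDN3 3.10% and CLDN4 2.565%. CLDN12, a claudin outside the 10 genes, held 7.98%. The 5 claudins described here made up 87.3% to 89.6% of the claudin total.

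Among 21 connexin genes the concentration was greater. GJA1 held 96.4% to 97.1% of the summed connexin TPM and GJC1 1.90% to 2.335%. Both shares are of RNA, and the files hold no protein measurement.

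The starts of 4 of these genes are shown because they mark the ends of that range: CLDN6 and GJA1, which lead their families, and CLDN3 and CLDN4, which share a stretch of chromosome 7 and lie on opposite strands. Each run is the 250 bases just upstream of the RefSeq start in GRCh38.p14, 5′ to 3′ on the gene's own strand, in lower case with motif matches in capitals. The windows are chr16:3018184-3018433 on the minus strand for CLDN6, chr6:121435396-121435645 on the plus strand for GJA1, chr7:73770271-73770520 on the minus strand for CLDN3 and chr7:73830746-73830995 on the plus strand for CLDN4.
CLDN6: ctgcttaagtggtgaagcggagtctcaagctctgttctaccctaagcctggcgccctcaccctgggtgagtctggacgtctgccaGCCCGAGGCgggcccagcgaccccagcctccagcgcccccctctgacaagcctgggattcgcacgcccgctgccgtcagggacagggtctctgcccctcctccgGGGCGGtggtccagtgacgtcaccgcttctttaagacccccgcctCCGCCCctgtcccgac
GJA1: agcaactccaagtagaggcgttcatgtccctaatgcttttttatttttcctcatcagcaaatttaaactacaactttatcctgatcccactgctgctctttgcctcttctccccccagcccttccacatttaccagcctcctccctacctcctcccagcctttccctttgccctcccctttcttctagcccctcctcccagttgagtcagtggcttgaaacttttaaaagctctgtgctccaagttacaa
CLDN3: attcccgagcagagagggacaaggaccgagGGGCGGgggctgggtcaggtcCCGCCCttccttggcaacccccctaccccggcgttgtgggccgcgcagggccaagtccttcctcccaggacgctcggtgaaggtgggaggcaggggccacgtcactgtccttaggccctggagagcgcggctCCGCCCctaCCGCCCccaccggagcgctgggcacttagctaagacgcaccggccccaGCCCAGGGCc
CLDN4: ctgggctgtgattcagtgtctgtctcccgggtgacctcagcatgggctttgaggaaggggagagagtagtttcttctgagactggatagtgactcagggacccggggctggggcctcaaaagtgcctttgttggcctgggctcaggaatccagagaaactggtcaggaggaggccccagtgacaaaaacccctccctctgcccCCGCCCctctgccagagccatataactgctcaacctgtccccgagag
The motifs were searched on both strands, and the share of 35116 RefSeq upstream windows of the same length with a match is given for each. They were the TATA box TATAAA (10.7%), the CCAAT box CCAAT (32%), the GC box GGGCGG bound by SP1-type factors (42.6%), the E-box CAGGTG bound by SNAI and ZEB factors (17.5%), the grainyhead motif AACCGGTT (0.117%) and the AP-2 motif GCCNNNGGC (19.8%). The CLDN6 window held 2 GC boxes and 1 AP-2 match, with 68% GC and 18 CpG. The CLDN3 window held 4 GC boxes and 1 AP-2 match, with 71.6% GC and 19 CpG. The CLDN4 window held 1 GC box, with 58.8% GC and 4 CpG, and the GJA1 window held no match, with 48% GC and 1 CpG. The median RefSeq window had 58% GC and 11 CpG, so the CLDN6 and CLDN3 windows were richer in both and the GJA1 window poorer. No match overlapped another in these 4 windows, and a match is a description of letters, not of binding. RefSeq entries for 14 starts were found for 8 of the 10 genes, all but F11R and GJC1.

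None of the 10 genes differed between the coatings at the threshold used, an edgeR adjusted p under 0.05. Over all 17608 genes, 446 (2.53%) passed it, 1.4% of genes higher on the mixed coating and 1.14% lower, so a count of 0 of 10 is near that background. DESeq2 also called 0 of the 10, with a background of 3%. An unadjusted edgeR p under 0.05 was reached by 2 of the 10, CLDN4 and GJC1, both higher on the mixed coating, against 14.5% of all genes. CPM values (counts scaled by TMM-adjusted library size) overlapped between the coatings for all 10, whereas they did not overlap for 19.9% of all genes. Estimates were above 0 for 6 genes and below 0 for 4, with the signs of CLDN7, CLDN10, OCLN, TJP1 and GJA1 turning under other settings of all libraries. Their log2 fold changes ran from -0.06 to 0.37 with a median of 0.02, against a median of -0.0011 over all genes. The median size of the difference, ignoring sign, was 0.03 for the 10 genes and 0.11 for all genes. The intervals given below are 95% intervals of the log2 fold change and show how large a difference the wells leave possible.

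**Figure D2:**
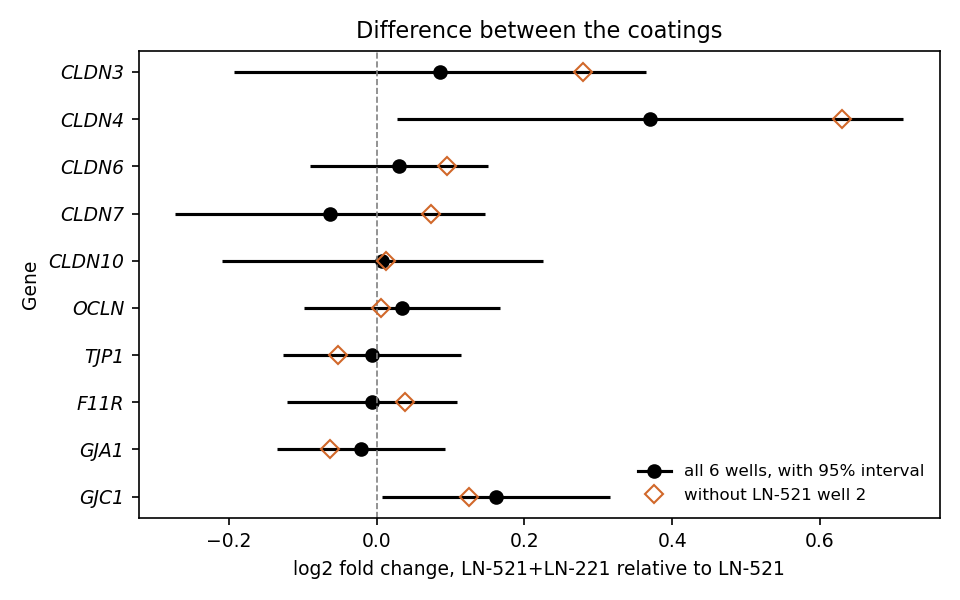
Log2 fold change of each gene on the mixed coating relative to LN-521 alone, with its 95% interval over all 6 wells (black) and the estimate without LN-521 well 2 (open diamonds). The intervals of CLDN4 and GJC1 lie just above 0 before adjustment, those of the other 8 genes include 0, and leaving out that well moves CLDN4 the farthest, from 0.37 to 0.63.

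CLDN6, a claudin of embryonic epithelia and of pluripotent cells (ENSG00000184697, chr16:3014712-3020071, minus strand), was measured most precisely of the claudins. Its wells had 275.5, 315.4 and 280.3 CPM on LN-521 and 294.6, 295.0 and 299.9 CPM on the mixed coating. LN-521 well 2 was the highest of all 6 and the other LN-521 wells the lowest, so the coatings overlapped. The means were 290.4 ± 21.8 and 296.5 ± 2.96 CPM (SD, n = 3 each), and the log2 fold change was 0.03 ± 0.06 (SE; interval -0.09 to 0.15; edgeR adjusted p = 0.865).

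CLDN4 encodes a tightening claudin that is also a receptor for Clostridium perfringens enterotoxin (ENSG00000189143, chr7:73799542-73832693, plus strand). It had 12.5, 18.5 and 11.1 CPM in the LN-521 wells, from 286, 492 and 277 counts. On the mixed coating it had 18.4, 17.7 and 18.5 CPM, from 382, 394 and 438 counts. Wells 1 and 3 of LN-521 were low, and well 2 of LN-521 stood level with the 3 wells of the other coating. The means were 14.0 ± 3.93 and 18.2 ± 0.452 CPM (SD, n = 3 each), and the coefficient of variation was 28.0% on LN-521 and 2.48% on the mixed coating. The log2 fold change was 0.37 ± 0.16 (SE; interval 0.03 to 0.71; edgeR adjusted p = 0.302), or 1.29-fold with an interval of 1.02 to 1.64. On the length-corrected scale the wells had 6.21, 7.76 and 5.05 TPM on LN-521 and 9.26, 8.49 and 8.68 TPM on the mixed coating. There the coatings did not overlap, but the difference of 0.43 on the log2(TPM + 1) scale was not called either (limma adjusted p = 0.367). How often other genes do not overlap in TPM was not computed. As a share of claudin TPM, CLDN4 was 2.05%, 2.69% and 1.87% on LN-521 and 2.96%, 2.83% and 2.98% on the mixed coating.

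Whether CLDN4 passed the threshold depended on LN-521 well 2 and on some settings. Without that well the log2 fold change was 0.63 (edgeR adjusted p = 4.52e-04), when 3.56% of all genes were called. Without a filter on low counts CLDN4 also passed (0.36; edgeR adjusted p = 0.0190; 1.98% of genes called), and with the replicate number as a block together with a correction for transcript GC content (0.42; edgeR adjusted p = 0.0397; 6.62%). Its adjusted p over all alternatives ran from 2.78e-04 to 0.603, and its estimate was above 0 in all of them, from 0.23 to 0.63. With the block alone (3.67% of genes called) or the GC correction alone (5.39%) none of the 10 genes passed, nor with limma on log2(TPM + 1) (0.36%) or on TPM rescaled without abundant small and mitochondrial RNAs (0.238%).

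CLDN3, another receptor of that enterotoxin and a neighbour of CLDN4 (ENSG00000165215, chr7:73768997-73770270, minus strand), had 10.8, 15.1 and 10.5 CPM on LN-521 and 14.1, 11.5 and 13.3 CPM on the mixed coating. LN-521 well 2 was the highest of the 6 and the wells of the other coating lay inside the LN-521 range. The means were 12.2 ± 2.56 and 13.0 ± 1.34 CPM (SD, n = 3 each), with an estimated log2 fold change of 0.09 ± 0.13 (SE; interval -0.19 to 0.37; edgeR adjusted p = 0.828). The interval leaves room for a modest difference in either direction.

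CLDN7, which epithelial cells also place along their lateral membranes (ENSG00000181885, chr17:7259903-7263983, minus strand), had 38.5, 46.4 and 33.7 CPM on LN-521 and 35.1, 38.9 and 39.5 CPM on the mixed coating. Again LN-521 well 2 was the highest and LN-521 well 3 the lowest. The log2 fold change was -0.06 ± 0.10 (SE; interval -0.27 to 0.15; edgeR adjusted p = 0.831).

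CLDN10, a claudin with isoforms that form ion-selective pores (ENSG00000134873, chr13:95433604-95579759, plus strand), had 17.6, 16.0 and 14.4 CPM on LN-521 and 14.6, 18.0 and 15.5 CPM on the mixed coating. High and low wells were found on both coatings, and the log2 fold change was 0.01 ± 0.10 (SE; interval -0.21 to 0.23; edgeR adjusted p = 0.985). CLDN10 shares 1558 exon bases with DZIP1 on the opposite strand, a gene with 747 to 899 counts per library. Since no source used here says whether counting used strand, reads of the overlap cannot be assigned with certainty.

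**Figure D3:**
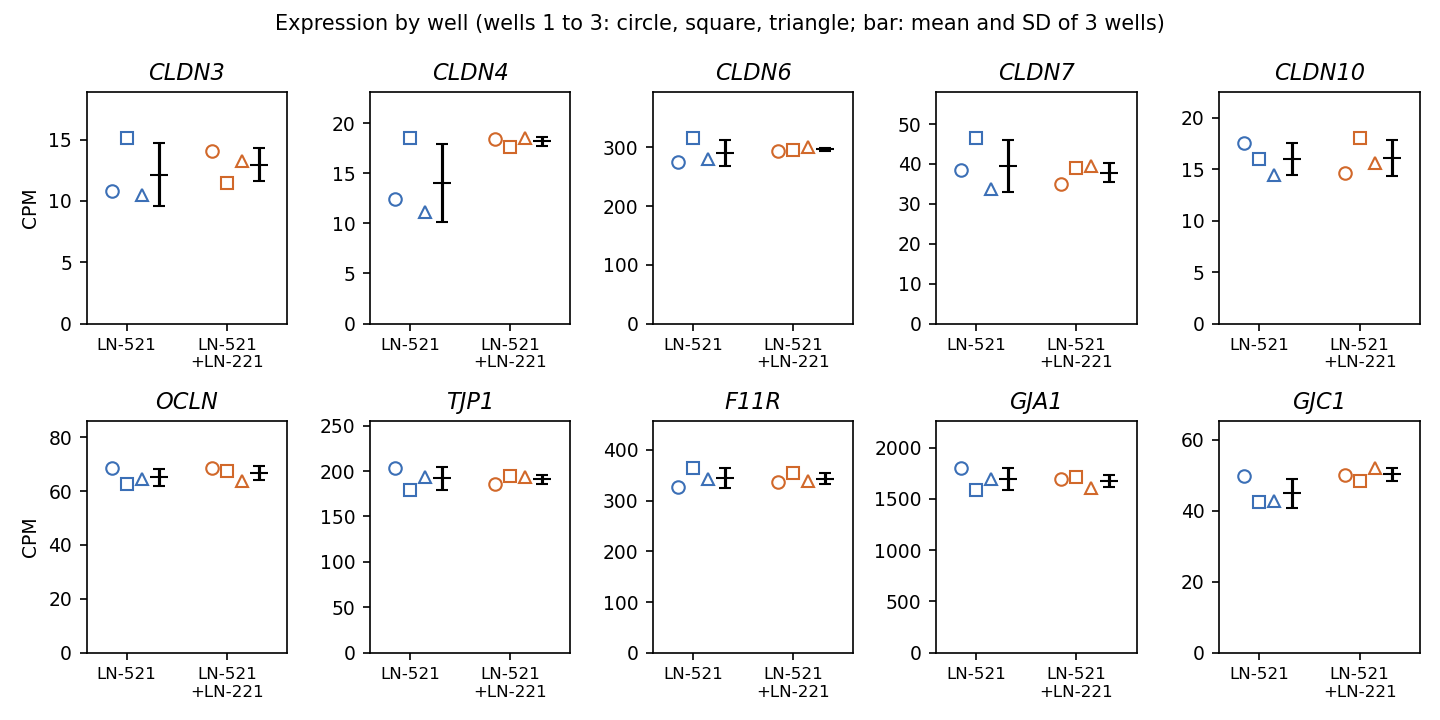
CPM of each gene in each well, with the mean and SD of the 3 wells of a coating at its side; each panel starts at 0. For CLDN3, CLDN4, CLDN6, CLDN7 and F11R the square of LN-521 well 2 is the highest of its coating. For OCLN, TJP1, GJA1 and GJC1 it is the lowest, and for CLDN10 it lies between the others.

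OCLN, the MARVEL-domain protein of the tight junction strand (ENSG00000197822, chr5:69492292-69558104, plus strand), had 68.65, 62.4 and 64.3 CPM on LN-521 and 68.7, 67.5 and 63.8 CPM on the mixed coating. The wells of both coatings covered nearly the same span, and the log2 fold change was 0.03 ± 0.06 (SE; interval -0.10 to 0.17; edgeR adjusted p = 0.862). Its pseudogene OCLNP1 held 0 to 22 counts per library, against at least 1427 for OCLN.

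TJP1 encodes the scaffold ZO-1, which binds claudins, occludin and actin (ENSG00000104067, chr15:29699367-29968865, minus strand). It had 203.9, 178.7 and 193.5 CPM on LN-521 and 185.35, 194.2 and 193.85 CPM on the mixed coating. The highest and the lowest well were both on LN-521. The log2 fold change was -0.01 ± 0.06 (SE; interval -0.13 to 0.11; edgeR adjusted p = 0.976).

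F11R, whose product JAM-A is an immunoglobulin-type adhesion molecule (ENSG00000158769, chr1:160995211-161021348, minus strand), had 326.65, 365.2 and 343.1 CPM on LN-521 and 335.9, 355.0 and 339.6 CPM on the mixed coating. The mixed-coating wells lay inside the range of the LN-521 wells, and the log2 fold change was -0.01 ± 0.05 (SE; interval -0.12 to 0.11; edgeR adjusted p = 0.975). Its counts were not whole numbers in 6 of 6 libraries, which marks reads divided between genes. It shares 1853 exon bases on the same strand with AL591806.3 (ENSG00000270149), whose 753 to 1449 counts were 8.68% to 13.0% of the summed counts of both genes. AL591806.3 had a log2 fold change of -0.06 (edgeR adjusted p = 0.940).

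GJA1, the connexin 43 gene (ENSG00000152661, chr6:121435577-121449727, plus strand), had 1804.8, 1587.7 and 1694.6 CPM on LN-521. On the mixed coating it had 1697.9, 1713.1 and 1602.4 CPM, inside the span of the LN-521 wells. The means were 1695.7 ± 108.5 and 1671.1 ± 60.0 CPM (SD, n = 3 each), and the log2 fold change was -0.02 ± 0.05 (SE; interval -0.135 to 0.09; edgeR adjusted p = 0.906). Its counts were not whole in 6 of 6 libraries, and its pseudogene GJA1P1 held 13 to 34 counts against at least 35259 for GJA1.

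GJC1, the connexin 45 gene (ENSG00000182963, chr17:44798448-44830816, minus strand), had 49.7, 42.5 and 42.7 CPM on LN-521 and 49.985, 48.5 and 52.2 CPM on the mixed coating. LN-521 wells 2 and 3 were the lowest of the 6, and LN-521 well 1 lay among the wells of the other coating. The means were 44.9 ± 4.09 and 50.2 ± 1.85 CPM (SD, n = 3 each), with an estimated log2 fold change of 0.16 ± 0.07 (SE; interval 0.01 to 0.32; edgeR adjusted p = 0.316). Without LN-521 well 1 GJC1 passed the threshold, at 0.24 (edgeR adjusted p = 0.0316), when 6.54% of all genes were called. Its adjusted p over all alternatives ran from 0.0316 to 0.861.

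Wells of the same coating differed from each other along transcript GC content, most widely on LN-521, and the 10 genes differ in that property. All genes with enough counts were split into 5 groups by GC. In LN-521 well 2 the median difference from the other LN-521 wells, on the log2(CPM + 1) scale, went from -0.13 in the group of lowest GC through -0.08, -0.0067 and 0.09 to 0.19 in the group of highest GC. In LN-521 well 1 it went the other way, from 0.11 to -0.16, and in well 3 from 0.0098 to -0.028. On the mixed coating it went from 0.028 to -0.040 in well 1, from 0.019 to -0.023 in well 2 and from -0.0485 to 0.063 in well 3. Each well was compared with the mean of the other 2, so these values are not independent of each other.

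The claudins other than CLDN10 are GC-rich and the remaining genes are not. In LN-521 well 2, CLDN3 (69.2% GC) differed from the other wells of its coating by 0.46, CLDN7 (59.1% GC) by 0.36, CLDN6 (57.4% GC) by 0.18 and CLDN4 (56.1% GC) by 0.61 on that scale. TJP1 (42.7% GC) differed by -0.15, GJA1 (41.7% GC) by -0.14, GJC1 (47.0% GC) by -0.11 and OCLN (41.9% GC) by -0.09. F11R (50.7% GC) differed by 0.13 and CLDN10 (41.3% GC) by 0.0091. The differences of the 4 GC-rich claudins all exceeded the median of their GC group, which was 0.19 for CLDN3 and CLDN7 and 0.09 for CLDN4 and CLDN6, and F11R and CLDN10 went against the sign of theirs.

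After a correction for GC content within each library, CLDN4 in LN-521 well 2 was still 0.53 above the other wells. Its corrected values were 12.8, 17.7 and 11.02 CPM on LN-521 and 18.8, 17.9 and 18.35 CPM on the mixed coating. The corresponding difference was 0.25 for CLDN3, 0.23 for CLDN7 and 0.08 for CLDN6. With the correction and without LN-521 well 2, a combination chosen after seeing the data, CLDN4 had a log2 fold change of 0.625 (edgeR adjusted p = 2.78e-04; 4.53% of genes called).

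**Figure D4:**
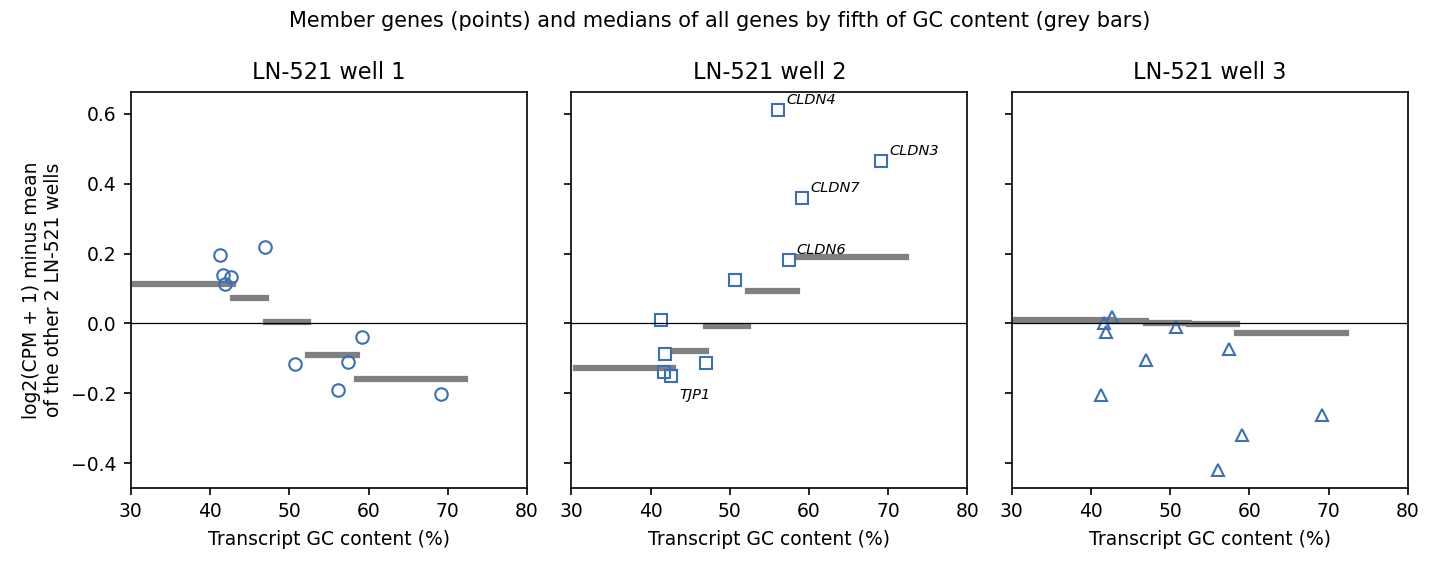
Difference of each LN-521 well from the mean of the other 2 LN-521 wells, on the log2(CPM + 1) scale, against transcript GC content, for the 10 genes (points) and as the median of all genes in 5 GC groups (grey bars). In well 2 the grey bars climb from -0.13 to 0.19. There CLDN3, CLDN4, CLDN6, CLDN7, CLDN10, F11R and OCLN lie above the bar of their group, and TJP1, GJA1 and GJC1 lie below it.

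The ratio of estimated count to TPM of a gene, set against the library median, follows the effective length that the authors' quantification gave it, which depends on which transcripts of the gene were counted. It was compared for 8756 genes with at least 50 counts and 5 TPM in every library, and it did not overlap between the coatings for 8.63% of them. Among the 10 genes it did not overlap for F11R and CLDN4. For F11R the ratio was 1.37, 1.29 and 1.31 on LN-521 and 1.39, 1.42 and 1.38 on the mixed coating, a log2 difference of 0.08 that 18.4% of genes exceeded in size. For CLDN4 it was 0.882, 0.887 and 0.869 against 0.857, 0.856 and 0.843, a log2 difference of -0.05 that 33.8% of genes exceeded. These differences are small and the other 8 genes overlapped.

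The wider junction gene set held 80 other genes, of which 54 had enough counts to be tested and 40 had a mean of at least 1 TPM. Of the 54, 1 rose and 0 fell, against 2.53% of all genes called, and 10 had an unadjusted p under 0.05, 5 in each direction, against 14.5% of all genes. Their median log2 fold change was -0.02. The gene that rose was TFAP2C, which encodes the AP-2 gamma transcription factor and was listed among regulators of claudin genes. It had 31.2, 31.1 and 30.5 CPM on LN-521 and 36.6, 42.1 and 41.0 CPM on the mixed coating, with every well of the second coating above every well of the first. The log2 fold change was 0.37 ± 0.07 (SE; edgeR adjusted p = 0.00940). It lost the threshold without LN-521 well 3 (edgeR adjusted p = 0.0738), without mixed-coating well 2 (edgeR adjusted p = 0.107) or without mixed-coating well 3 (edgeR adjusted p = 0.0766), and with limma on TPM values (adjusted p = 0.259 to 0.356).

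Of the 10 regulators tested in that list of 12, the other 9 did not pass. GRHL2, the grainyhead factor known to drive claudin genes in epithelia, had the highest level of the list at 14.97 TPM. Its CPM was 63.2, 63.2 and 62.0 on LN-521 and 68.4, 67.8 and 67.7 on the mixed coating, a log2 fold change of 0.11 (edgeR adjusted p = 0.386) although the coatings did not overlap. GRHL3 had the largest estimate in size, at -0.54, from 26 to 57 counts per library (edgeR adjusted p = 0.341). ZEB1 and SNAI2, repressors of epithelial genes, had 6 to 13 and 4 to 18 counts and were not tested. SNAI1 of the same list was tested, with 138 to 243 counts and a log2 fold change of 0.03 (edgeR adjusted p = 0.957). ZEB2, also tested, had 8 to 18 counts and a log2 fold change of 0.27 (edgeR adjusted p = 0.816).

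Of 19 other claudins 8 were tested and 0 passed. CLDN12 was the highest, at 23.5 TPM, with a log2 fold change of 0.05 (edgeR adjusted p = 0.796). CLDN5, known from endothelium, had the largest estimate in size at -0.42, from 5 to 12 counts (edgeR adjusted p = 0.716). CLDN8 and CLDN17 had 0 counts in all libraries. After the 5 claudins described above and CLDN12, the next highest was CLDN19, at a mean share of 1.63% of claudin TPM.

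The other MARVEL proteins and angulins, among them tricellulin and the angulins that seal the corners where several cells meet, had 5 of 5 genes tested, 0 passed, and 5 of 5 estimates below 0 with a median of -0.12. LSR, an angulin, was the highest at 29.7 TPM and had a log2 fold change of -0.16 (edgeR adjusted p = 0.3095), and it passed without LN-521 well 1, at -0.24 (edgeR adjusted p = 0.0266). MARVELD2, which encodes tricellulin, had -0.18 (edgeR adjusted p = 0.299), with 30.5, 27.4 and 28.0 CPM on LN-521 and 26.0, 25.8 and 24.2 CPM on the mixed coating. The wells of MARVELD2 did not overlap between the coatings.

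Of 18 other scaffold and polarity genes all 18 were tested and 0 passed, with a median log2 fold change of 0.01. PRKCI, an atypical protein kinase C of the Par complex, was the highest at 40.5 TPM, with -0.10 (edgeR adjusted p = 0.537), and it passed with the GC correction (-0.14; edgeR adjusted p = 0.0350), also with the replicate block added (edgeR adjusted p = 0.0265) or without LN-521 well 2 (-0.17; edgeR adjusted p = 0.0255). TJP3, which encodes ZO-3, had the largest estimate, 0.27 ± 0.07 (SE; edgeR adjusted p = 0.0539). It had 64.2, 76.0 and 63.6 CPM on LN-521 and 79.3, 81.2 and 85.6 CPM on the mixed coating, without overlap. TJP3 passed with DESeq2 (adjusted p = 0.0213) and, with edgeR, without a filter (adjusted p = 0.00864), with a filter of 1 CPM (0.0469), with the GC correction (1.68e-04), with the replicate block (0.00941), with both (6.23e-06), without LN-521 well 1 (0.0457) and without LN-521 well 2 (6.58e-04). It also passed with the GC correction without LN-521 well 2 (adjusted p = 2.14e-04). TJP3 did not pass with other library scalings, with limma on TPM, without LN-521 well 3 or with any mixed-coating well left out. The estimate for TJP1 was -0.01, and the difference between the 2 genes was not tested.

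Of 4 other junctional adhesion molecules 3 were tested and 0 passed. CXADR, the coxsackievirus and adenovirus receptor, was the highest and had the largest estimate, at 77.6 TPM and 0.10 (edgeR adjusted p = 0.522), and it passed without LN-521 well 1, at 0.185 (edgeR adjusted p = 0.0196). Of 19 other connexins 8 were tested and 0 passed, and GJC3 was the highest at 2.445 TPM, with -0.37 (edgeR adjusted p = 0.377). PANX1, a pannexin that forms channels to the outside of the cell, had 15.5 TPM and 0.23 (edgeR adjusted p = 0.170), and 0 of 2 pannexins tested passed. PANX1 passed without LN-521 well 1 (0.35; edgeR adjusted p = 0.00127) and with the replicate block and GC correction (0.235; edgeR adjusted p = 0.0107).

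**Figure D5:**
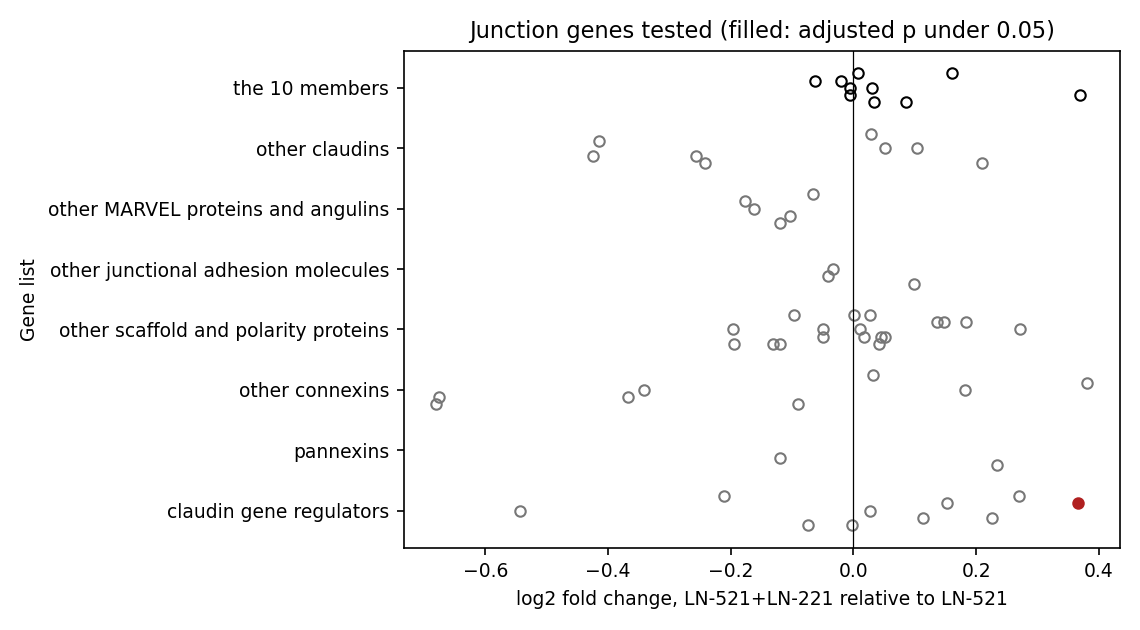
Log2 fold change of each tested junction gene by list, 1 point per gene, with genes past the adjusted threshold filled. TFAP2C at 0.37 is the 1 filled point, and the 10 genes described here lie between -0.06 and 0.37 at the top.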

How the data were processed

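Per the labels' protocols, a stranded kit for total RNA was used for the 6 libraries, with paired reads of 150 bp. Per the submitters' processing notes, cutadapt, STAR 2.5.2b and RSEM 1.2.31 were used with the hg38 build; their settings, the annotation and whether counting used strand are not given in the sources used here. The authors deposited a table of estimated counts per gene, in which some values are not whole, and a second table holds TPM, corrected for length and scaled to a fixed total. TPM therefore move with any RNA that takes a large share: small and mitochondrial RNAs took 30.7% to 37.9% of TPM and 4.98% to 6.46% of counts.

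Estimated counts were rounded, filtered with filterByExpr (minimum count 10), scaled by TMM and compared over all genes with edgeR 4.0.16 (quasi-likelihood, robust; R 4.3.3), adjusted by Benjamini-Hochberg over 17608 genes at a threshold of 0.05. Adjusted p-values come from edgeR unless limma 3.58.1 or DESeq2 1.42.0 is named. DESeq2 left 1366 adjusted p-values undefined. Intervals are estimates plus or minus the t quantile times the SE, and the code was tested on simulated data. Depth was 20606450 to 26836686 counts per library, and the smallest chi-square per degree of freedom between wells of a coating was 2.76, so all wells were counted separately. A single sequencing batch is listed.

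The 10 genes, the junction and marker lists and the promoter motifs were chosen with earlier results of these data known. Named junction genes are those called and, in each list, the gene with the highest mean TPM and the tested gene with the largest absolute log2 fold change. Of these, 1 gene is not reported here. ZEB1, ZEB2, SNAI1, SNAI2, CLDN8, CLDN17 and CLDN19 were named after their values were seen, as were markers other than POU5F1, SOX2 and the highest of each list. Symbols were found for 68.0% of gene IDs. Gene positions, GC content and overlaps came from GENCODE 29 (GRCh38), which held 93.8% of the IDs, and promoter sequences from RefSeq.

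Deviations of same-numbered wells from their group means correlated at 0.047, -0.022 and 0.0090, so the replicate numbers were not taken to pair the wells. Alternatives were other scalings and filters, DESeq2, limma on TPM, a GC correction (lowess, span 0.3), the replicate block, other thresholds and leaving out each library. The GC correction without LN-521 well 2 was added after seeing the data.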

Additional observations from a re-analysis of the deposited data

How the results depend on the processing

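Of 161 values recomputed from all libraries under other settings, 121 stayed on the same side of the threshold with the same sign (for counts, within 1.5 times), and of 94 recomputed with a library left out 61 did. CLDN4 passed with no filter (0.36), with the replicate block and GC correction (0.42) and with the GC correction without LN-521 well 2 (0.625). Estimates near 0 changed sign: CLDN7 to 0.0205 and 0.0212 with limma on log2(TPM + 1) and log2(TPM + 0.1); CLDN10 to -0.0155 and -0.0160 there, -0.0509 on rescaled TPM, -0.0021 without a filter, -0.0307 with the GC correction and -0.0311 with the block added; OCLN to -0.00168 and -0.00165 with the last 2; TJP1 to 0.0398, 0.0414 and 0.0041 on the 3 TPM scales; GJA1 to 0.0207 on both unscaled TPM. The cause was not tested.

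With a library left out, log2 fold changes ran from -0.0102 to 0.280 for CLDN3, 0.226 to 0.6295 for CLDN4, -0.0071 to 0.0958 for CLDN6, -0.167 to 0.074 for CLDN7, -0.080 to 0.0774 for CLDN10, 0.0065 to 0.0724 for OCLN, -0.053 to 0.0387 for TJP1, -0.0444 to 0.039 for F11R, -0.0638 to 0.0258 for GJA1 and 0.125 to 0.238 for GJC1. The genes called over all genes ran from 194 to 1179, those of the 10 from 0 to 1 and those of the 54 other junction genes from 0 to 6. The junction count of 6 came without LN-521 well 1 (TFAP2C, TJP3, LSR, PANX1, PATJ and CXADR), and 0 came without LN-521 well 3 or well 2 or 3 of the mixed coating.

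From all libraries, 446 genes became 718 without a filter, 949 with the GC correction, 1166 with block and GC correction, 646 with the replicate block alone, 52, 24 and 37 on the 3 TPM scales, and 221 and 725 at thresholds of 0.01 and 0.1. The added GC correction without LN-521 well 2 gave 807. Of the 10 genes, 1 was called without a filter, with block and GC correction, and in that added fit. Junction calls other than 1 were 2 without a filter, with a filter of 1 CPM, with DESeq2, with the replicate block or at 0.1, 4 with the GC correction and in the added fit, 5 with block and GC correction (TFAP2C, TJP3, PANX1, CGN and PRKCI), and 0 on TPM. The all-gene median shifted by no more than 0.041. Counts were lowest for CLDN3, CLDN4 and CLDN10, at 249 to 492 per library for the first pair and 304 to 426 for the last, and their coefficients of variation between LN-521 wells were 21.1%, 28.0% and 9.84%.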

Other observations

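CLDN3 and CLDN4, which lie near each other on chromosome 7, were set against each other within each well, a ratio chosen after its values were seen. CLDN4 over CLDN3 in TPM was 0.727, 0.769 and 0.683 in the LN-521 wells and 0.8495, 1.002 and 0.924 in the wells of LN-521+LN-221. The means were 0.7265 ± 0.0429 and 0.925 ± 0.0764 (SD, n = 3 each). The coatings did not overlap in TPM, which alone fixes the exact two-sided permutation p at 0.1, the smallest that 3 wells against 3 can give. The share of other gene pairs that do not overlap was not computed. On GC-corrected CPM, an alternative added after seeing the data, the ratio was 1.12, 1.33 and 1.03 against 1.32, 1.51 and 1.36. There LN-521 well 2 lay above well 1 of LN-521+LN-221, so the coatings overlapped.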
